A study of Mus musculus with 12 samples.

Results

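The 8 genes described here are the Jun family (Jun, Junb and Jund), the Fos family (Fos, Fosb, Fosl1 and Fosl2) and Atf3. They were picked by gene name from the FPKM table and found in the count table by gene ID, 8 of 55401 genes there, of which 29550 had a count in at least 1 library. All 8 were among the 18183 genes with enough counts to be tested, and none had fewer than 174 counts in any library. RNA sequencing of total RNA gave 12 libraries in 4 groups of 3: sgRnf19a_IR (guide against Rnf19a, 24 h of a treatment called IR), control_IR (control guide sgNC, same treatment), sgRnf19a (guide against Rnf19a, untreated) and control (sgNC, untreated). The labels do not spell out IR, and do not say whether the guided cells were 1 clone or a pool. All groups are labelled B16F10, a mouse melanoma line. Its identity was checked with 8 melanocyte markers: no read was counted for Slc45a2, Mlana, Tyrp1 or Tyr in any of the 12 libraries, Dct, Pmel and Sox10 reached at most 0.0928, 0.376 and 0.604 CPM, and Mitf lay between 2.20 and 16.1 CPM. The pigment genes that define melanocytes were therefore absent or nearly so, which goes against that label. Of 6 epithelial markers Krt8 (151 to 708 CPM) and Krt18 (143 to 314 CPM) were high, while Krt5 was at 0 and Krt14, Cdh1 and Epcam reached at most 0.160, 0.181 and 2.21 CPM, and no other cell type is named from them.

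AP-1 is a transcription factor built from pairs of basic leucine zipper proteins. Jun proteins pair with each other or with a Fos protein, while Fos proteins need a Jun partner, and the pair binds short DNA elements in promoters and enhancers. Atf3 is a zipper protein of the ATF group that is made in stressed cells and can pair with Jun proteins. Jun, Fos, Fosb and Atf3 are classic immediate early genes, switched on within minutes to hours by growth factors, kinases of the JNK and ERK cascades and DNA damage, and in melanoma Jun and Fosl1 have been tied to a dedifferentiated, invasive state.

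The IR-treated and untreated libraries differed in make-up as well as in treatment. Total counts were 34.3 to 45.6 M in IR-treated libraries and 62.7 to 71.3 M in untreated ones. Ribosomal RNA genes took 11.4% to 22.2% of counts in IR-treated libraries, against 0.408% to 0.813% in untreated ones. The median log2 level of transcripts over 6000 bp minus that of transcripts under 1000 bp was -1.11 to 0.57 in sgRnf19a_IR, -1.57 to -1.35 in control_IR, 1.95 to 2.13 in sgRnf19a and 1.15 to 1.89 in control. Within sgRnf19a_IR the libraries differed from each other, at -0.33, -1.11 and 0.57 in replicates 1, 3 and 4. Their ribosomal RNA shares were 11.4%, 22.2% and 13.3%, so make-up did not single out 1 of them. Replicate 4 was the lowest of its group for all 8 genes, and several fold changes and calls are given with and without it. Group means, family sums and shares include it. Fold changes are also given with length and GC of the transcripts corrected for. Rnf19a, the targeted ubiquitin ligase gene, was at 18.1, 11.6 and 37.7 CPM in sgRnf19a_IR replicates 1, 3 and 4 and at 4.37, 8.06 and 5.39 CPM in control_IR replicates 1, 4 and 5. Untreated it was at 27.4, 25.6 and 22.6 CPM in sgRnf19a replicates 1 to 3 and at 33.5, 29.4 and 21.5 CPM in control replicates 1 to 3. With its guide Rnf19a was called higher among IR-treated cells (log2 fold change 1.92, edgeR adjusted p = 0.00352) and not called among untreated cells (-0.16, adjusted p = 0.881). IR lowered it in control cells (-2.24, edgeR adjusted p = 0.000521) and not detectably in sgRnf19a cells (-0.16, adjusted p = 0.766). The cause was not tested. A guide can disable a protein without lowering its mRNA, so these levels are no check of the labels. Summed markers of fibroblasts (7 of 7 with a count in every group) were at 104 to 207 CPM in sgRnf19a_IR, 414 to 445 in control_IR, 62.2 to 150 in sgRnf19a and 487 to 525 in control. Collagen genes carried most of this sum. The highest levels in any library were 438 CPM for Col3a1, 97.8 for Col1a1 and 38.4 for Col1a2. They were 22.3 CPM for Pdgfrb, 5.71 for Pdgfra, 4.07 for Dcn and 1.32 for Lum. Summed markers of epithelium (4 or 5 of 6 with a count, Krt5 at 0 throughout) were at 296 to 495 CPM in sgRnf19a_IR, 855 to 1024 in control_IR, 387 to 399 in sgRnf19a and 541 to 644 in control. The part of the make-up and of these markers in the results below was not tested.

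In the mouse genome (mm10) the Jun family genes have a single exon in their longest transcript and the other 5 have 4 exons. Jun (ENSMUSG00000052684) lies at chr4:95049034-95052222 on the minus strand, Junb (ENSMUSG00000052837) at chr8:84976910-84978718 on the minus strand and Jund (ENSMUSG00000071076) at chr8:70698949-70700616 on the plus strand. Fos (ENSMUSG00000021250) lies at chr12:85473890-85477273 (plus), Fosb (ENSMUSG00000003545) at chr7:19302696-19310051 (minus), Fosl1 (ENSMUSG00000024912) at chr19:5447547-5455946 (plus) and Fosl2 (ENSMUSG00000029135) at chr5:32135801-32157842 (plus). Atf3 (ENSMUSG00000026628) lies at chr1:191170296-191218039 (minus). Jund has the shortest longest transcript of the 8 (1668 bp) and the highest GC content (67.2%), and Fosl2 has the longest (6537 bp, 53.1% GC). The 3' UTR of Fosl2 holds 8 ATTTA elements, which mark many short-lived mRNAs, and those of Jun and Fos hold 4 each, against a median of 1 over 19220 genes with a 3' UTR. These counts are not per length, and the 3' UTR of Fosl2 is the longest of the 8 (4656 bp). Those of Jun and Fos have 1236 and 818 bp. Atf3 holds 3 elements in 1189 bp and Junb 2 in 488 bp, while Jund, Fosb and Fosl1 hold 1 each.

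Atf3 had the largest IR responses, Jun and Fosb had the called differences between the genotypes, and Fos is the classic partner of Jun. For these 4 genes the 250 bases before their RefSeq starts (GRCm38.p6, the NCBI name of the mm10 assembly) are shown. Letters are 5' to 3' on the gene's strand, and capitals mark AP-1 and CRE-like elements. In Jun these are TGACATCA, known as its proximal element, and TTACCTCA, known as its distal element. In Atf3 the capitals mark the CRE-like TTACGTCA, and in Fos and Fosb the shorter CRE core TGACG.
Jun, chr4:95052223-95052472, minus strand: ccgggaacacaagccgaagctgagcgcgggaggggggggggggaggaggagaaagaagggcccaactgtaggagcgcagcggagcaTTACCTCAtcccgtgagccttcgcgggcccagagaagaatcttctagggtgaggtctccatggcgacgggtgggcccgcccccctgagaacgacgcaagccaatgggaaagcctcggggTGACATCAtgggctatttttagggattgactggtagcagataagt
Atf3, chr1:191183334-191183583, minus strand: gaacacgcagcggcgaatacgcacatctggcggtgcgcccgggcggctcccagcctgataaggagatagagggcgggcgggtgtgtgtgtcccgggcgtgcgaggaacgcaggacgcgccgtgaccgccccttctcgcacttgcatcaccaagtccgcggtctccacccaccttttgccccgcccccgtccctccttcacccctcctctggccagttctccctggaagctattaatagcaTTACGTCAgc
Fos, chr12:85473640-85473889, plus strand: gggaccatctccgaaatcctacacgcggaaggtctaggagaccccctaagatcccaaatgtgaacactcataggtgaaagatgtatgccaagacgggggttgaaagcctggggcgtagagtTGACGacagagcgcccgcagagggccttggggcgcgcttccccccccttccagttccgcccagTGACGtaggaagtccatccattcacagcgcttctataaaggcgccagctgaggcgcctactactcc
Fosb, chr7:19310046-19310295, minus strand: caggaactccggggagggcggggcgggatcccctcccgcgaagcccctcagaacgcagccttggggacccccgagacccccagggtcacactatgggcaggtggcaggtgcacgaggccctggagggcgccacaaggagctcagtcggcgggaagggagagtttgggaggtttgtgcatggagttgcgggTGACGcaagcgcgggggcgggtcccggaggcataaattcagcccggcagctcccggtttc
Sequences for 7 of the 8 genes were matched, and each was searched on both strands. In Jun the proximal element began 45 bases and the distal element 164 bases before the start, and 2.93% and 0.728% of 32841 promoters of the same length hold these letters. In Atf3 TTACGTCA began 10 bases before the start (0.448% of promoters) and overlaps a TGACG on the other strand. That window lies inside the Atf3 gene span given above, before a start downstream of the 5' end of the span. Atf3 has 3 annotated transcripts, and sequence before any other start was not searched. TGACG, in 17.8% of promoters, began 129 and 66 bases before the start in Fos, 60 bases before it in Fosb and 106 bases before it in Junb. The letters of the full AP-1 element TGACTCA (4.46% of promoters) and of the full CRE TGACGTCA (1.55%) were in none of the 7 windows, and draw no statement about binding.

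Levels compared between genes are FPKM, which the authors' table gives per transcript length. Junb had the highest level in each of the 4 groups and Fosb the lowest. In sgRnf19a_IR the order was Junb (77.3 ± 30.2 FPKM), Atf3 (35.3 ± 4.62), Jund (24.1 ± 10.9), Fosl1 (19.9 ± 5.92), Jun (19.4 ± 4.32), Fos (3.76 ± 0.590), Fosl2 (2.21 ± 0.490) and Fosb (0.745 ± 0.136; SD, n = 3 throughout). In control_IR it was Junb (90.6 ± 7.50 FPKM), Jun (72.0 ± 8.40), Jund (55.2 ± 9.33), Fosl1 (30.9 ± 1.22), Atf3 (29.5 ± 7.09), Fos (3.78 ± 0.664), Fosl2 (2.30 ± 0.410) and Fosb (1.74 ± 0.184). Jun thus stood 5th in sgRnf19a_IR and 2nd in control_IR, and Atf3 stood 2nd and 5th. Untreated, the order in sgRnf19a was Junb (38.7 ± 4.50 FPKM), Fosl1 (28.8 ± 3.03), Jund (17.4 ± 0.579), Jun (6.84 ± 0.391), Atf3 (2.80 ± 1.10), Fos (2.57 ± 0.331), Fosl2 (2.43 ± 0.167) and Fosb (0.748 ± 0.0404). In control it was Junb (35.8 ± 9.45 FPKM), Fosl1 (26.8 ± 2.25), Jund (26.5 ± 5.61), Jun (9.35 ± 1.18), Atf3 (3.67 ± 0.382), Fosl2 (2.24 ± 0.0568), Fos (1.91 ± 0.303) and Fosb (0.573 ± 0.131). Neighbours in these orders whose libraries overlapped were Jund, Fosl1 and Jun in sgRnf19a_IR, Fosl1 and Atf3 as well as Fosl2 and Fosb in control_IR, Atf3, Fos and Fosl2 in sgRnf19a, and Junb, Fosl1 and Jund as well as Fosl2 and Fos in control. The first 5 genes are therefore the abundant ones with IR, and Fos, Fosl2 and Fosb stayed below 5 FPKM in every library.

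**Figure D1:**
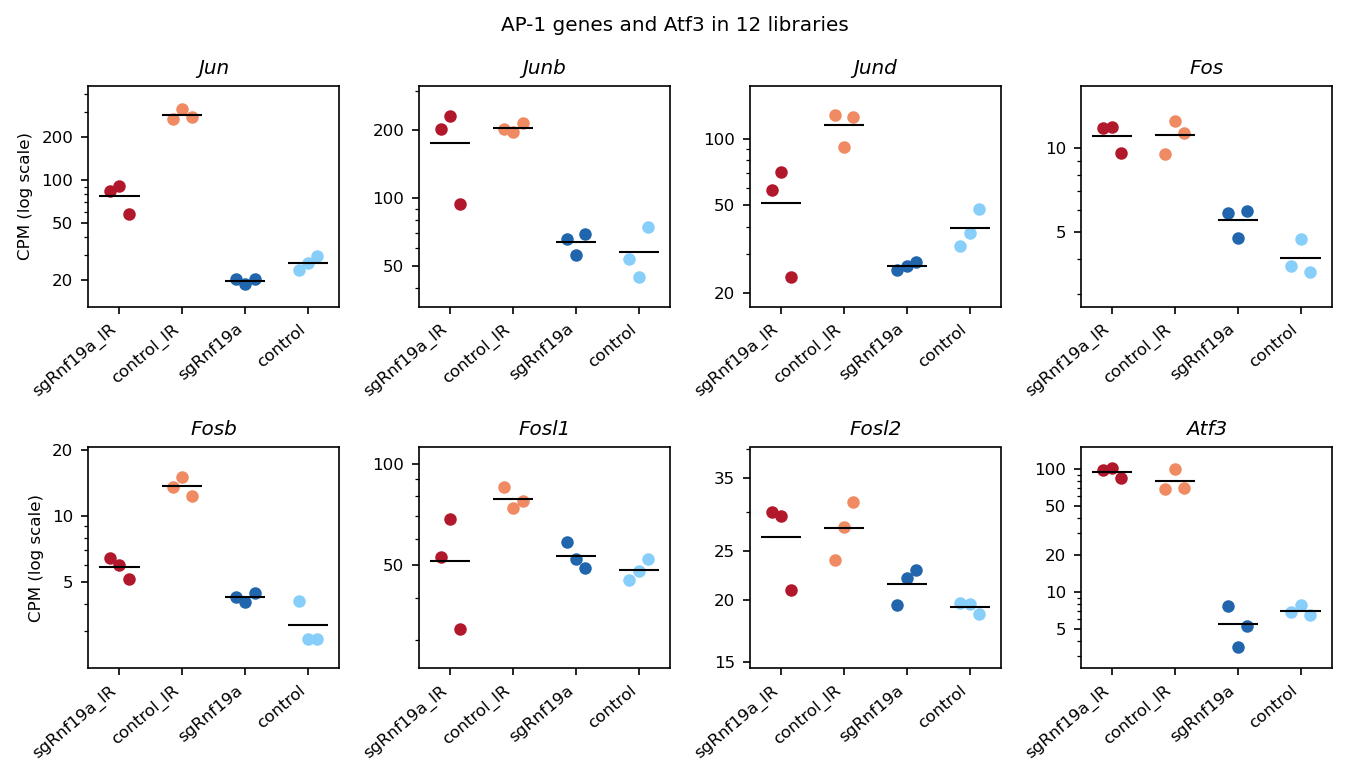
TMM-scaled CPM (log axis) of each gene in 12 libraries; points are libraries, lines are means of 3. Jun and Fosb lie between the untreated groups and control_IR in sgRnf19a_IR, Atf3 is high in both IR-treated groups, and sgRnf19a_IR replicate 4, the right-hand red point, is the lowest of its group for all 8 genes.

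Jun, the founding member of the family, was 1 of 2 members whose IR response was called different between the genotypes, with Fosb. It was at 84.6, 90.7 and 57.6 CPM in sgRnf19a_IR replicates 1, 3 and 4 and at 269, 316 and 276 CPM in control_IR replicates 1, 4 and 5. Untreated it was at 20.3, 18.8 and 20.6 CPM in sgRnf19a and at 23.5, 26.4 and 29.7 CPM in control. No 2 of the 4 groups overlapped. IR raised Jun 3.91-fold in sgRnf19a cells (log2 fold change 1.97, SE 0.17, adjusted p = 2.4e-05, edgeR quasi-likelihood test with Benjamini-Hochberg adjustment, as for all adjusted p below) and 10.8-fold in control cells (log2 3.43, SE 0.18, adjusted p = 1.68e-06). In bulk RNA, fewer cells that express a gene and less of its RNA per cell cannot be told apart. Among IR-treated cells Jun was 3.70-fold lower with the guide (log2 -1.89, SE 0.17, adjusted p = 2.49e-05), and among untreated cells 1.34-fold lower, which did not pass (log2 -0.42, SE 0.17, adjusted p = 0.217). These 4 comparisons share groups and are not independent.

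Tested as a difference between the IR responses, sgRnf19a cells had a log2 response of Jun lower by 1.47 than control cells (SE 0.24, edgeR adjusted p = 0.0255; -1.34 after the length and GC correction, adjusted p = 0.00557). The sign held without any single library, from -1.59 to -1.29 on the log2 scale. The call did not. It was kept without sgRnf19a_IR replicate 3 (adjusted p = 0.00559) or replicate 4 (adjusted p = 0.00414), and lost without any 1 of the other 10 libraries, sgRnf19a_IR replicate 1, all 3 control_IR, all 3 sgRnf19a and all 3 control, with adjusted p between 0.0508 and 0.0967. With the corrected counts the 2 IR responses were 1.87 in sgRnf19a cells and 3.21 in control cells on the log2 scale, and without sgRnf19a_IR replicate 4 the response in sgRnf19a cells was 2.13. Junos, an antisense gene that overlaps Jun by 689 bases, had 36 to 196 counts per library, and its part in the counts of Jun was not tested.

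Junb, a Jun family member that binds DNA like Jun but activates transcription less, gave no detectable difference between the genotypes. It was at 203, 232 and 94.6 CPM in sgRnf19a_IR replicates 1, 3 and 4 and at 202, 196 and 216 CPM in control_IR replicates 1, 4 and 5. In untreated cells it was at 65.8, 56.1 and 69.7 CPM in sgRnf19a and at 54.0, 44.9 and 74.3 CPM in control. Both IR-treated groups lay above both untreated groups, and replicate 4 of sgRnf19a_IR was well below its other 2 libraries. IR raised Junb 2.77-fold in sgRnf19a cells (log2 1.47, SE 0.29, edgeR adjusted p = 0.00215) and 3.55-fold in control cells (log2 1.83, SE 0.29, adjusted p = 0.000319). After the length and GC correction both responses stood near 2-fold, at log2 1.06 and 1.07, and both still passed. The guide difference in IR-treated cells was -0.21 on the log2 scale (SE 0.28, edgeR adjusted p = 0.600) and turned to 0.40 with the correction and to 0.09 without sgRnf19a_IR replicate 4, none of them called.

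Jund, the Jun family member that is usually present without stimulation, had the least settled response of the family. It was at 58.9, 70.5 and 23.5 CPM in sgRnf19a_IR replicates 1, 3 and 4 and at 128, 92.0 and 127 CPM in control_IR replicates 1, 4 and 5. Untreated levels were 25.3, 26.5 and 27.6 CPM in sgRnf19a and 32.5, 37.3 and 48.1 CPM in control. Replicate 4 of sgRnf19a_IR lay below all 3 untreated sgRnf19a libraries. IR raised Jund 1.92-fold in sgRnf19a cells (log2 0.94, SE 0.32, edgeR adjusted p = 0.0371) and 2.94-fold in control cells (log2 1.56, SE 0.32, adjusted p = 0.00177), and among IR-treated cells it was 2.27-fold lower with the guide (log2 -1.18, SE 0.32, adjusted p = 0.0150). All 3 calls ended with the length and GC correction, at log2 0.28 in sgRnf19a cells (adjusted p = 0.333), 0.47 in control cells (adjusted p = 0.0899) and -0.43 for the guide (adjusted p = 0.151). The response in sgRnf19a cells was called in only 4 of 12 fits that left out 1 library, those without control replicate 1 or 3, control_IR replicate 4 or sgRnf19a_IR replicate 4 (log2 1.28 without the last), and otherwise had edgeR adjusted p between 0.0502 and 0.159. The guide difference in IR-treated cells was also lost without control_IR replicate 1 (log2 -1.10, edgeR adjusted p = 0.0545).

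The shares of the 3 genes in the summed FPKM of the Jun family differed between the groups. The sum was 121 ± 45.2 FPKM in sgRnf19a_IR, 218 ± 14.1 in control_IR, 63.0 ± 5.13 in sgRnf19a and 71.6 ± 15.4 in control (SD, n = 3 each). Jun held 17.0% ± 3.86 of it in sgRnf19a_IR, 33.1% ± 3.97 in control_IR, 10.9% ± 0.357 in sgRnf19a and 13.2% ± 1.60 in control. The highest share of Jun in sgRnf19a_IR was 21.4% and the lowest in control_IR 30.7%. Junb held 63.6% ± 1.47 in sgRnf19a_IR, 41.5% ± 0.728 in control_IR, 61.4% ± 2.31 in sgRnf19a and 49.7% ± 4.37 in control. Its share was thus nearly the same in both sgRnf19a groups and lower in control_IR, with no overlap between any sgRnf19a and any control library. Jund held 19.4% ± 2.41 in sgRnf19a_IR, 25.3% ± 3.82 in control_IR, 27.7% ± 2.09 in sgRnf19a and 37.0% ± 3.06 in control. The FPKM sums were not TMM-scaled. On log2(FPKM + 1) the median of all genes was -0.40 with IR in sgRnf19a cells and -0.34 in control cells.

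**Figure D2:**
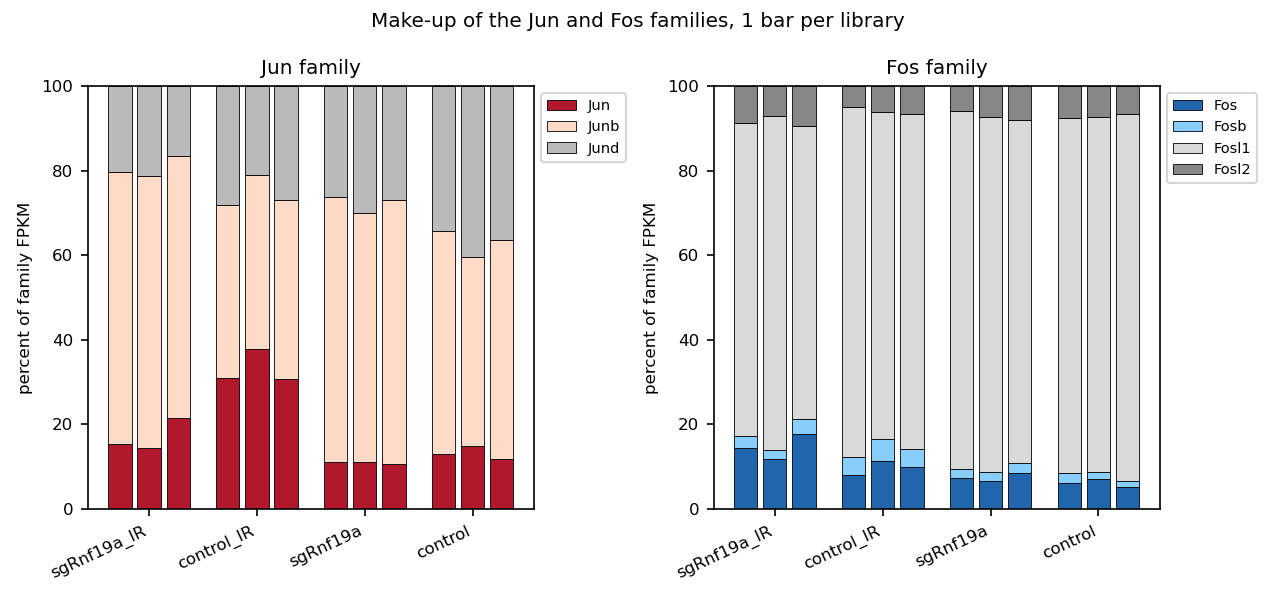
Percent of the summed FPKM of the Jun family (left) and the Fos family (right) taken by each gene, 1 stacked bar per library. Jun takes 30.7% to 37.7% in control_IR and at most 21.4% in the other 9 libraries, and Fosl1 takes most of the Fos family in all 12.

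In the Fos family Fosb, an inducible Fos protein gene, had the response that differed between the genotypes. It was at 6.43, 6.0 and 5.16 CPM in sgRnf19a_IR replicates 1, 3 and 4 and at 13.6, 15.1 and 12.4 CPM in control_IR replicates 1, 4 and 5. Without IR it was at 4.30, 4.07 and 4.48 CPM in sgRnf19a and at 4.11, 2.77 and 2.78 CPM in control. The IR-treated groups did not overlap with each other or with the untreated groups, whereas the untreated groups did. In sgRnf19a cells the log2 fold change of Fosb with IR was 0.45 and did not pass (SE 0.19, edgeR adjusted p = 0.0868; 0.53 and adjusted p = 0.0494 without sgRnf19a_IR replicate 4), while in control cells IR raised it 4.25-fold (log2 2.09, SE 0.20, adjusted p = 4.29e-05). Among IR-treated cells Fosb was 2.33-fold lower with the guide (log2 -1.22, SE 0.19, edgeR adjusted p = 0.00106; -0.98 and adjusted p = 0.00273 after the length and GC correction). Its level was low, 0.745 FPKM in sgRnf19a_IR and 1.74 FPKM in control_IR on average, on 174 to 526 counts per library.

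The difference between the IR responses of Fosb was -1.63 on the log2 scale (SE 0.27, edgeR adjusted p = 0.0268; -1.52 and adjusted p = 0.0182 after the correction). As for Jun the sign held without any 1 library (-1.85 to -1.54) and the call did not. It was kept without control replicate 1 (adjusted p = 0.0297), sgRnf19a_IR replicate 3 (adjusted p = 0.0106) or replicate 4 (adjusted p = 0.0171) and lost without sgRnf19a_IR replicate 1, any 1 of the control_IR or sgRnf19a libraries, or control replicate 2 or 3, with edgeR adjusted p between 0.0524 and 0.0967. On log2(FPKM + 1), where low values shrink, it was -0.81 (limma adjusted p = 0.0316, or 0.0514 with no filter), and on log2(FPKM + 0.1) it was -1.48 and not called (limma adjusted p = 0.0734).

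Fos, the partner of Jun in the classic AP-1 pair, rose in both genotypes to overlapping levels. It was at 11.8, 11.9 and 9.58 CPM in sgRnf19a_IR replicates 1, 3 and 4 and at 9.51, 12.6 and 11.3 CPM in control_IR replicates 1, 4 and 5. Its untreated levels were 5.84, 4.77 and 5.98 CPM in sgRnf19a and 3.78, 4.72 and 3.60 CPM in control. The 2 IR-treated groups overlapped fully, and all 6 of their libraries lay above all 6 untreated ones. IR raised Fos 2.01-fold in sgRnf19a cells (log2 1.01, SE 0.18, edgeR adjusted p = 0.00148) and 2.76-fold in control cells (log2 1.47, SE 0.19, adjusted p = 0.000116), and both calls remained after the length and GC correction (log2 0.87 and 1.26). Every sgRnf19a library lay above every control library when untreated, but that difference did not pass (log2 0.46, SE 0.18, adjusted p = 0.215), nor did the difference between the responses (log2 -0.46, SE 0.26, adjusted p = 0.329).

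Fosl1, which encodes the Fos protein Fra-1, made up most of the family in every group, and its calls ended with the length and GC correction. It was at 52.8, 68.7 and 32.4 CPM in sgRnf19a_IR replicates 1, 3 and 4 and at 85.2, 73.8 and 77.6 CPM in control_IR replicates 1, 4 and 5. Untreated it was at 58.6, 52.2 and 49.2 CPM in sgRnf19a and at 45.2, 47.9 and 52.3 CPM in control. The sgRnf19a_IR libraries spanned the whole untreated range, with replicate 4 below it, and the control_IR libraries lay above it. The IR difference was -0.06 on the log2 scale in sgRnf19a cells (SE 0.22, edgeR adjusted p = 0.869) and 0.70 in control cells (SE 0.22, adjusted p = 0.0183), and with the guide among IR-treated cells it was -0.62 (SE 0.22, adjusted p = 0.0446). The calls for IR in control cells and for the guide both ended with that correction (log2 0.16, adjusted p = 0.349, and -0.16, adjusted p = 0.397). The call for IR in control cells was also lost without control replicate 1 or 2 or control_IR replicate 1 (adjusted p 0.0530 to 0.0669), and that for the guide without any 1 library but sgRnf19a_IR replicate 3 (edgeR adjusted p 0.0561 to 0.132, log2 -0.38 without replicate 4). On log2(FPKM + 1) Fosl1 fell with IR in sgRnf19a cells (-0.55, limma adjusted p = 0.0241), a scale on which the median of all genes was -0.40 there. Ccdc85b, on the opposite strand, overlaps Fosl1 by 2767 bases and moved alike, with log2 0.71 for IR in control cells (edgeR adjusted p = 0.0338) and -0.73 among IR-treated cells with the guide (adjusted p = 0.0425), and whether counting used the strand is not given in the sources used here.

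Fosl2, which encodes the Fos protein Fra-2, had group means of TMM-scaled CPM that lay closer together than those of the other 7 genes, which did not hold after the length and GC correction. It was at 30.0, 29.3 and 20.9 CPM in sgRnf19a_IR replicates 1, 3 and 4 and at 24.0, 27.9 and 31.4 CPM in control_IR replicates 1, 4 and 5. Untreated it was at 19.5, 22.1 and 22.9 CPM in sgRnf19a and at 19.7, 19.6 and 18.7 CPM in control. The sgRnf19a_IR libraries overlapped the untreated ones through replicate 4, and the control_IR libraries lay above all of them. In sgRnf19a cells the log2 difference with IR was 0.32 (SE 0.16, edgeR adjusted p = 0.154), or 0.46 without sgRnf19a_IR replicate 4 (adjusted p = 0.0134). In control cells it was 0.52, or 1.44-fold (SE 0.16, adjusted p = 0.0188), a call that ended without control replicate 3 or control_IR replicate 4 or 5 (adjusted p 0.0553 to 0.0999). Fosl2 has the longest transcript of the 8, and the length and GC correction raised both IR differences, to 0.63 in sgRnf19a cells (adjusted p = 0.0107) and 1.01 in control cells (adjusted p = 0.000419), while on log2(FPKM + 1) they were -0.11 in sgRnf19a cells and 0.02 in control cells.

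Of the summed FPKM of the Fos family Fosl1 held 74.1% ± 4.78 in sgRnf19a_IR, 79.8% ± 2.79 in control_IR, 83.3% ± 1.87 in sgRnf19a and 84.9% ± 1.67 in control (SD, n = 3 each). Fos held 14.6% ± 2.97 in sgRnf19a_IR, 9.75% ± 1.70 in control_IR, 7.46% ± 0.965 in sgRnf19a and 6.09% ± 0.995 in control. Fosb never passed 5.13% in a library, and its mean share was 2.89% in sgRnf19a_IR against 4.51% in control_IR. On FPKM the family sum changed less than that of the Jun family, at 26.6 ± 6.75 FPKM in sgRnf19a_IR, 38.8 ± 0.985 in control_IR, 34.5 ± 2.98 in sgRnf19a and 31.5 ± 2.09 in control. These sums were not TMM-scaled, so the lower sum in sgRnf19a_IR than in sgRnf19a is not read as a fall. On TMM-scaled CPM Fosl1 averaged 51.3 in sgRnf19a_IR and 53.3 in sgRnf19a, and Fos 11.1 and 5.53. In control_IR and control Fosl1 averaged 78.9 and 48.5 CPM, and Fos 11.1 and 4.03.

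Atf3, whose product can repress or activate its targets depending on the partner, had the largest estimated IR response of the 8 genes in both genotypes, within the SE of that of Jun in control cells. It was at 99.3, 101 and 85.1 CPM in sgRnf19a_IR replicates 1, 3 and 4 and at 69.0, 99.5 and 69.7 CPM in control_IR replicates 1, 4 and 5. Untreated it was at 7.65, 3.53 and 5.28 CPM in sgRnf19a and at 6.92, 7.79 and 6.43 CPM in control. The lowest IR-treated library was many times above the highest untreated one, and the 2 genotypes overlapped at each treatment. IR raised Atf3 17.4-fold in sgRnf19a cells (log2 4.12, SE 0.27, edgeR adjusted p = 2.81e-06) and 11.3-fold in control cells (log2 3.49, SE 0.27, adjusted p = 1.35e-05). The guide difference among IR-treated cells (log2 0.26, SE 0.24, edgeR adjusted p = 0.436) and the difference between the IR responses (log2 0.62, SE 0.34, adjusted p = 0.319) did not pass, and the estimated difference between the responses is opposite in sign to that of Jun. With the length and GC correction the IR responses were 3.97 in sgRnf19a cells and 3.24 in control cells on the log2 scale, and the difference between them 0.72 (adjusted p = 0.225).

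**Figure D3:**
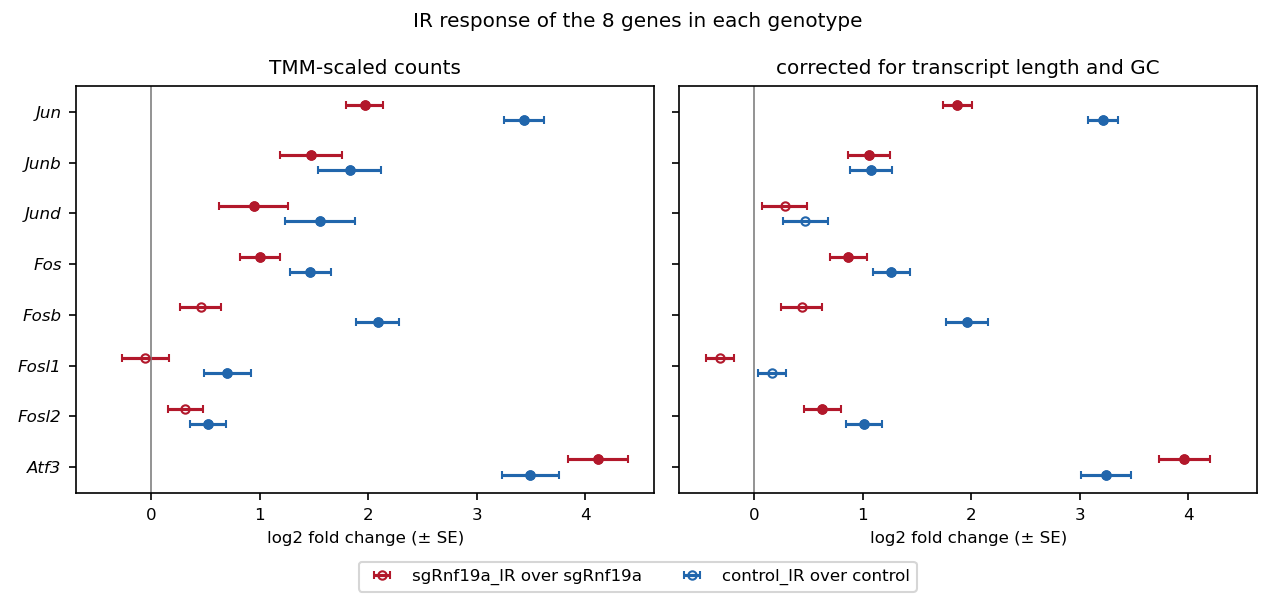
Log2 fold change with IR (± SE) in sgRnf19a cells (red) and control cells (blue), on TMM-scaled counts (left) and after the length and GC correction (right); filled points have an edgeR adjusted p under 0.05. The genotypes lie apart for Jun and Fosb in both panels, while Jund and Fosl1 lose their filled points on the right.

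Counted over the 8 genes, IR raised 5 in sgRnf19a cells (Jun, Junb, Jund, Fos and Atf3), where 18.0% of all genes tested were called higher, and 8 in control cells, where 22.2% were. Without sgRnf19a_IR replicate 4 the count in sgRnf19a cells was 7, with Fosb and Fosl2 added, and without any other 1 library it was 4 or 5. In control cells it was 7 or 8 without any 1 library. After the length and GC correction the counts were 5 in sgRnf19a cells (Fosl2 in place of Jund, 19.1% of all genes) and 6 in control cells (without Jund and Fosl1, 24.3% of all genes). All 3 IR-treated libraries lay above all 3 untreated ones for 5 of the 8 genes in sgRnf19a cells (Jun, Junb, Fos, Fosb and Atf3, against 23.2% of all genes) and for 8 of the 8 in control cells (30.0% of all genes). In sgRnf19a cells Jund and Fosl2 overlapped through sgRnf19a_IR replicate 4 alone. The median log2 fold change of the 8 was 0.98 with IR in sgRnf19a cells and 1.69 in control cells, against a median of -0.02 over all genes in each. On log2(FPKM + 1) these medians were 0.37 and 0.92, against -0.40 and -0.34 over all genes.

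With the guide, 4 of the 8 genes were lower among IR-treated cells (Jun, Jund, Fosb and Fosl1), where 12.8% of all genes were called lower, and 2 (Jun and Fosb) after the length and GC correction, where 14.9% were. Without sgRnf19a_IR replicate 4 the count was 3, with Fosl1 lost, and without control_IR replicate 1 it was 2, with Jund and Fosl1 lost. The call of Fosl1 was lost in 11 of the 12 fits that left out 1 library, and kept only without sgRnf19a_IR replicate 3. The median log2 fold change of the 8 was -0.42 in that comparison, against 0.07 over all genes, and -0.16 after the length and GC correction, against -0.06 over all genes. Among untreated cells 0 of the 8 were called by edgeR, where 6.22% of all genes were called in either direction; 2 of them (Jun lower and Fos higher) had an unadjusted p under 0.05, and DESeq2 and limma on log2(FPKM + 1) called 0. In a fit of only the 2 untreated groups Jun (log2 -0.46, edgeR adjusted p = 0.0283) and Jund (log2 -0.61, adjusted p = 0.0244) were called lower, as they were without sgRnf19a_IR replicate 4 (adjusted p = 0.0267 and 0.0403). The difference between the IR responses was called for 2 of the 8, both lower in sgRnf19a cells, against 0.137% of all genes called lower (0.792% after the length and GC correction, with the same 2 members), and its median over the 8 was -0.54, against 0.09 over all genes. That share depends on the setting: 25 genes were called lower in the main fit, 395 with DESeq2 (2 members called) and 795 with the replicate block (4 members called). Leaving out 1 library gave 0 to 3 members.

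Ratios within a library do not depend on its depth. The log2 ratio of Jun to Atf3 CPM was -0.23, -0.16 and -0.56 in sgRnf19a_IR replicates 1, 3 and 4 and 1.96, 1.67 and 1.99 in control_IR replicates 1, 4 and 5. It was 1.41, 2.41 and 1.96 in sgRnf19a and 1.77, 1.76 and 2.21 in control. These are ratios of counts and not per length, so their size is not read. Their differences between groups are not corrected for the length and GC of the transcripts. Jun (3189 bp, 55.5% GC) differs in both from Atf3 (1984 bp, 52.2%) and Junb (1809 bp, 62.6%), and the part of library make-up was not tested. For Jun to Atf3, 9 libraries lay between 1.41 and 2.41, and the 3 sgRnf19a_IR libraries lay below all of them. The log2 ratio of Jun to Junb was -1.35 to -0.72 in sgRnf19a_IR, 0.35 to 0.69 in control_IR, -1.76 to -1.58 in sgRnf19a and -1.32 to -0.76 in control, and the control_IR libraries lay above the other 9. The log2 ratio of Fosb to Fos was -0.99 to -0.88 in sgRnf19a_IR, 0.13 to 0.52 in control_IR, -0.44 to -0.23 in sgRnf19a and -0.77 to 0.12 in control. All 3 sgRnf19a_IR libraries, which differ from each other in make-up, lay below all 3 control_IR libraries in all 3 ratios. No test was run on the ratios.

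**Figure D4:**
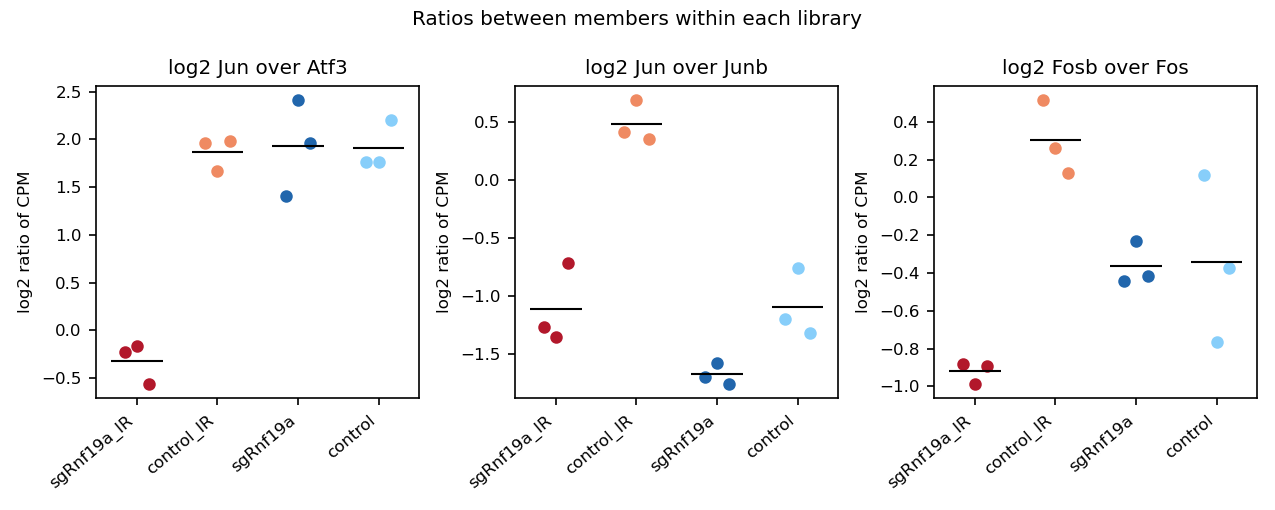
Log2 ratios of CPM within each library, with Jun over Atf3 (left), Jun over Junb (middle) and Fosb over Fos (right); points are libraries and lines are means of 3. Jun over Atf3 is lower in the 3 sgRnf19a_IR libraries than in the other 9, and Jun over Junb is higher in the 3 control_IR libraries than in the other 9.

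Over the 12 libraries the log2(CPM + 0.5) of the 8 genes moved together to different degrees. Pearson's r between pairs ran from 0.36 for Atf3 and Fosl1 to 0.93 for Atf3 and Fos, with 0.86 for Jun and Atf3, 0.93 for Jun and Fosb and 0.89 for Jun and Junb. Among 10732 genes with a mean of at least 2 CPM, the genes most like Jun were Pgam5 (r = 0.992), Rdh13 (0.990) and Dusp1 (0.989), a phosphatase that switches off MAP kinases. The genes most like Fosb included Kctd7 (r = 0.974) and Coa4 (0.957), and those most like Fos were Nif3l1 (0.972), Rabl3 (0.970) and Mettl22 (0.968). Atf3 was most like Ifnb1 (r = 0.988), the interferon beta gene, Ubb-ps (0.987) and Ppp1r15a (0.987), which restores translation after stress. The genes most like Junb were Hoxa11, Tmed9 and Bbc3 (0.994 to 0.995), those most like Jund Sigirr, Rnf187 and Gpc1 (0.990 to 0.995), those most like Fosl1 Thop1, Sirt7 and Elac2 (0.975 to 0.988) and those most like Fosl2 Cln8, Ankra2 and Rexo4 (0.932 to 0.956). These values describe 12 libraries that share the treatment and its difference in library make-up.

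Genes around AP-1 were counted in 5 lists, read against 18.0% of all genes called higher and 17.6% lower with IR in sgRnf19a cells, 22.2% and 25.7% in control cells, and 21.0% and 12.8% with the guide among IR-treated cells. Of 28 genes of other zipper proteins, 10 were higher and 6 lower with IR in sgRnf19a cells (median log2 fold change 0.27). In control cells 9 were higher and 9 lower (median 0.20), against a median of -0.02 over all genes in both. After the length and GC correction 11 of the 16 and 11 of the 18 calls were kept. Atf4, the main factor of the integrated stress response, was higher with IR in both genotypes (468 ± 76.2 CPM in sgRnf19a_IR against 170 ± 15.2 in sgRnf19a, and 818 ± 26.2 in control_IR against 271 ± 28.6 in control; SD, n = 3 each), as was its target Ddit3 (log2 1.38 and 1.32). Crem, a CRE-binding gene, had the only call of this list for the difference between the responses (log2 1.21, edgeR adjusted p = 0.0496; not called after the correction, log2 0.72), a comparison in which 0.544% of all genes were called higher. Of 24 kinases of the JNK, ERK and p38 cascades, 1 was higher (Map2k1, a kinase above ERK, log2 1.02) and 9 were lower with IR in sgRnf19a cells (median -0.20). In control cells 7 of the 24 were higher and 11 lower (median -0.14). The kinase genes Braf (log2 -1.91 in sgRnf19a cells and -2.91 in control cells) and Map3k5 (log2 -2.29 in control cells) were among those lower. After the length and GC correction 7 of the 10 kinase calls in sgRnf19a cells and 9 of the 18 in control cells were kept.

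Of 11 transcription factors known to act on Jun and Fos promoters, 1 was higher and 4 lower with IR in sgRnf19a cells (median log2 fold change -0.23) and 2 were higher and 6 lower in control cells (median -0.55). After the length and GC correction 3 were higher and 3 lower in sgRnf19a cells (median -0.28), and 2 were higher and 3 lower in control cells (median -0.04), with 4 of the 5 and 4 of the 8 calls kept. Among IR-treated cells 4 of these 11 were higher and 2 lower with the guide (median 0.17, against 0.07 over all genes). Srf, which binds the serum response element of Fos, was lower there (log2 -0.77, edgeR adjusted p = 0.0237; not called after the correction, log2 -0.11). Of 13 genes that act in the decay of AP-1 mRNAs and proteins, 1 was higher and 5 lower with IR in sgRnf19a cells (median -0.26) and 2 were higher and 5 lower in control cells (median -0.18). After the correction 2 were higher and 2 lower in sgRnf19a cells (median 0.11) and 5 were higher and 3 lower in control cells (median 0.08). Of the calls before it, 3 were kept in sgRnf19a cells and 5 in control cells. Zfp36, whose product speeds the decay of mRNAs with ATTTA elements such as those of Fosl2 and Fos, was higher with IR in both (log2 1.09 in sgRnf19a cells and 1.21 in control cells).

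Of 25 genes known as AP-1 targets, 6 were higher and 2 lower with IR in sgRnf19a cells (median log2 fold change -0.11) and 6 were higher and 4 lower in control cells (median 0.13), and 8 of the 8 and 9 of the 10 calls were kept after the length and GC correction. Dusp1 was 3.24-fold higher with IR in sgRnf19a cells and 4.88-fold in control cells, and Mmp10, a matrix protease gene, 3.80-fold and 7.05-fold. With the guide, 8 of the 25 were higher and 5 lower among IR-treated cells (median -0.17, against 0.07 over all genes), and 8 of these 13 calls were kept after the correction. Lif, a cytokine gene, was at 128 ± 29.1 CPM in sgRnf19a_IR and 49.9 ± 2.0 in control_IR (SD, n = 3 each, as for the next 2 genes). Hbegf, an EGF receptor ligand gene, was at 11.0 ± 0.369 CPM in sgRnf19a_IR and 23.0 ± 1.95 in control_IR, and Dusp1 was at 29.6 ± 4.50 in sgRnf19a_IR and 63.1 ± 5.86 in control_IR. Hbegf (log2 -1.28, edgeR adjusted p = 0.0154) and Il6 (log2 2.86, adjusted p = 0.0470) were the calls of this list for the difference between the responses. The call of Hbegf was kept after the length and GC correction (adjusted p = 0.00557) and that of Il6 was not (adjusted p = 0.0573).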

How the data were processed

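Per the labels' protocols, total RNA lost its ribosomal RNA before strand-marked libraries were made, and reads were paired, 37 bases each. Bowtie2, HTSeq, DESeq2, mm10 and GRCm39 come up in the submitters' processing notes. Versions, roles and the strand setting were not given in the sources used here. The authors deposited unnormalized whole-number counts per gene, which pile up at multiples of 4 (in transcripts over 2 kb the value 4 occurred 5958 times, 3 occurred 989 times and 5 occurred 1000 times), so these deposited counts were treated as estimated counts of about 4 per read pair. The authors' FPKM table was used for levels between genes. A further 12 per-sample columns were not used.

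The headers of the treated libraries show a D with a number instead of IR. The labels leave these columns no other group than IR, and the libraries go by that number here. No pair of libraries agreed within sampling noise. Nothing in the labels says that libraries of a group were grown separately, and p-values reflect variation among the libraries alone, which may be technical.

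Genes passing filterByExpr (minimum count 10, minimum total 15) were TMM-scaled and fitted over 12 libraries with 4 group means in edgeR 4.0.16 (glmQLFit, robust, glmQLFTest, 2-sided; R 4.3.3), with Benjamini-Hochberg adjustment over all genes and calls at 0.05. CPM are TMM-scaled. SE is the log2 fold change over the square root of F. The length and GC correction used splines (5 degrees of freedom) on the longest GENCODE M21 transcript per library, as offsets. Scripts were tested on simulated data. Also tried were a replicate number as block, DESeq2 1.42.0, upper-quartile scaling, DESeq2's size factors in edgeR, a filter of 1 CPM in 3 libraries or none, fitting only the groups compared, limma 3.58.1 on log2(FPKM + 1) (mean at least 0.5 FPKM, or no filter) or log2(FPKM + 0.1), counts divided by 4, and leaving out each library. Fold changes on log2(FPKM + pseudocount) understate low genes.

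The members and lists were chosen with earlier results of these data known. The rule named all 8 members, Rnf19a, up to 4 called genes with the smallest p per list and comparison, and the 3 named genes most correlated with each member; Ddit3, Srf and other list genes fall under it, and a few genes it selects are not reported here. Plots used matplotlib 3.10.9.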

Additional observations from a re-analysis of the deposited data

Results flagged for a closer look

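The IR response of Fosb differed between the genotypes by -1.63 and that of Jun by -1.47 on the log2 scale (sgRnf19a cells minus control cells), each tested as an interaction over all genes with edgeR (adjusted p = 0.0268 and 0.0255). Both had the same sign in every fit that left out 1 library, while the calls were lost in 9 and 10 of these 12 fits. Transcript length, ribosomal RNA share and marker sums also differ between the groups, and their part was not tested beyond the length and GC correction, under which both calls remained (-1.52 and -1.34).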

How the results depend on the processing

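Of 472 values of single genes under settings other than leaving out a library, 424 kept their direction and side of the threshold, 25 lost and 10 gained a call and 13 changed sign without being called in either fit. Of 480 with 1 library left out, the counts were 421, 45, 5 and 9. The cause was not tested where a value moved, except that fits of only the groups compared or without a library hold fewer libraries.

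Members called moved from 5 to 3 for IR in sgRnf19a cells (log2(FPKM + 1), no filter), from 4 to 2 for the guide in IR-treated cells (only the groups compared, and length and GC correction), from 0 to 2 for the guide in untreated cells (only the groups compared), and for the difference between IR responses from 2 to 4 with the replicate block and to 1 on log2(FPKM + 0.1) and on log2(FPKM + 1) with no filter. Leaving out 1 library gave 4 to 7, 2 to 4, 0 to 2 and 0 to 3 members for these 4 comparisons, and 7 to 8 for IR in control cells.

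All genes called moved for the guide in IR-treated cells from 6140 to 2797 (only the groups compared) and 2952 (log2(FPKM + 1), no filter), for the guide in untreated cells from 1131 to 1778 (DESeq2) and 2825 (only the groups compared), and for the difference between IR responses from 124 to 1695 (DESeq2), 2767 (replicate block), 55 (log2(FPKM + 0.1)) and 352 (length and GC correction). Leaving out 1 library gave 3877 to 7612, 642 to 2116 and 5 to 2624. The 2624 calls came without sgRnf19a_IR replicate 3 (2073 higher and 551 lower). For IR in control cells 4028 genes were higher and 4679 lower; upper-quartile factors, which put the median of all genes at 0.19, gave 5122 and 3988, and log2(FPKM + 1) gave 2115 and 6038.

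Signs changed, with no call, for IR in sgRnf19a cells in Fosb (-0.0047 on log2(FPKM + 1), with and without filter, and -0.015 on log2(FPKM + 0.1)), Fosl1 (0.070 with upper-quartile factors, 0.078 with the replicate block) and Fosl2 (-0.11 on log2(FPKM + 1), with and without filter, and -0.15 on log2(FPKM + 0.1)). For the guide in IR-treated cells they changed in Junb (0.40, length and GC correction) and Fos (0.0087 DESeq2, 0.010 its size factors in edgeR, 0.00070 no filter, 0.058 length and GC correction). With 1 library left out, the ranges were -0.33 to 0.18 for Fosl1 with IR in sgRnf19a cells, -0.11 to 0.093 for Fos, -0.16 to 0.097 for Fosl2 and -0.46 to 0.089 for Junb with the guide in IR-treated cells, and -0.0067 to 0.37 for Junb with the guide in untreated cells. Deviations of same-numbered libraries from their group means had r from -0.16 to 0.29, the highest for control and sgRnf19a_IR replicate 3. Deviations from means of 3 libraries cannot settle whether the numbers pair the samples. Fosb had the fewest counts of the 8 genes, 174 at least.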
